A study of Mus musculus with 6 samples.

Results

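The 31 genes described here encode the folding machinery and the stress response of the endoplasmic reticulum (ER), in the colon of Adamts4 knockout mice (KO) and wild-type mice (WT) that had all received 2.5% dextran sodium sulfate (DSS) for 7 days. DSS given in drinking water is a common way to bring on colitis in mice, and Adamts4 encodes a secreted metalloproteinase that cleaves large proteoglycans. The genes were taken by symbol from a table of 21899 genes. They comprise 14 ER chaperones and folding enzymes, 6 genes of ER-associated degradation, 6 stress sensors with their transcription factors, and 5 targets of the ATF4 and CHOP pathway. All 31 had a row that passed the filter on low counts. Ddit3 also had a second row under another identifier, with 1 count in WT 2 and none in the other libraries, which was not tested. There were 3 KO and 3 WT libraries of whole colon RNA, so no untreated animals enter any value below. The knockout allele and the strain are not given in the labels, nor is it said that each library came from a separate animal, and p-values measure only the spread between these samples.

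Proteins that are secreted or set into membranes are folded in the ER with the help of chaperones, and those that fail to fold are sent back to the cytosol for destruction. When unfolded protein accumulates, the sensors IRE1 (genes Ern1 and Ern2), PERK (Eif2ak3) and ATF6 start the unfolded protein response. IRE1 splices Xbp1 mRNA, ATF6 is cut to release a transcription factor, and PERK slows translation while letting ATF4 be made. XBP1 and ATF6 act on chaperone and degradation genes, and ATF4 on genes of amino acid supply and, through CHOP (Ddit3), of cell death. In the colon this machinery is used most by secretory cells, the mucus-making goblet cells and the antibody-making plasma cells. Counts per gene show neither the splicing of Xbp1 nor the cutting of ATF6 nor the activity of PERK.

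The response acts on short promoter elements, and the stretches shown here are those in which the elements were found among these genes, because chaperone genes and ATF4 targets are known to be addressed through different letters. The ER stress element (ERSE, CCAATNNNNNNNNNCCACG) was found, on either strand, in the 250 bases before the start of 7 of the 12 chaperone genes with a RefSeq promoter and of Syvn1. Of all 32851 RefSeq mouse promoters, 37 (0.113%) held it. Part of what is known of this element was learned on these same genes, Hspa5 first among them. In the stretches from RefSeq (GRCm38.p6) the fixed letters of the element are in capitals, and each stretch is read 5′ to 3′ on the strand of its gene. Calr and Creld2 carry the element on the opposite strand, as CGTGG and ATTGG, and Hsp90b1 carries it once on each strand.
Hspa5 (chr2:34772010-34772058, plus strand): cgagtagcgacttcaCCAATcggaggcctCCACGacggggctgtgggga
Hsp90b1 (chr10:86705518-86705671, minus strand): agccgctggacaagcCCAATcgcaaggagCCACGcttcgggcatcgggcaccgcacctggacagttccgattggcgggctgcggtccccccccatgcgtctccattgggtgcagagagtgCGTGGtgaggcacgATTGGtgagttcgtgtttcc
Pdia6 (chr12:17266476-17266524, plus strand): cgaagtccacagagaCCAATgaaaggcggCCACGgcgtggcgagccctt
Calr (chr8:84847060-84847108, minus strand): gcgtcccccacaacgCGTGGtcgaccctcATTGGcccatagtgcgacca
Canx (chr11:50325785-50325833, minus strand): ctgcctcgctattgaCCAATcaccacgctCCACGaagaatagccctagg
Dnajc3 (chr14:118937812-118937860, plus strand): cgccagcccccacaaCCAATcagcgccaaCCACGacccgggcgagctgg
Creld2 (chr15:88819505-88819553, plus strand): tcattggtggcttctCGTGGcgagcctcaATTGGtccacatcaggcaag
Syvn1 (chr19:6046517-6046565, plus strand): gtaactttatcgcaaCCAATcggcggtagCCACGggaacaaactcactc

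A shorter form of the element, ERSE-II, in which ATTGG and CCACG stand 1 base apart, was found in 10 promoters (0.0304%), among them that of Herpud1. The CARE motif (TGATGNAA), a letter pattern bound by ATF4, was found in 1134 promoters (3.45%), a common pattern by comparison. It stood before Herpud1 and before 2 of the 5 ATF4 and CHOP targets, Asns and Chac1. In the stretches below, the fixed letters of each motif are in capitals, and the CARE of Herpud1 and of Chac1 lies on the opposite strand.
Herpud1 with ERSE-II (chr8:94386362-94386402, plus strand): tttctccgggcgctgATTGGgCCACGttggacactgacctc
Herpud1 with CARE (chr8:94386302-94386339, plus strand): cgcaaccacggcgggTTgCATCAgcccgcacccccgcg
Asns (chr6:7693210-7693247, minus strand): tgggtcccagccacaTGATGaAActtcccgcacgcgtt
Chac1 (chr2:119351034-119351071, plus strand): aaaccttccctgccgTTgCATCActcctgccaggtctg
No promoter of Manf, Hyou1, Derl1, Atf6 or Ern2 was searched. A match is a string of letters and not a site shown to be bound.

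Adamts4, on chromosome 1, had no count in any KO library, against 900, 992 and 997 counts in the WT libraries. Setting each KO library to the floor of 3 counts, the KO level was lower by at least 289.5-fold (adjusted p = 0.00213 in edgeR), and all 6 libraries matched the genotype of their labels. Total counts ran from 15786214 to 22932125 per library. KO 3 stood apart from the rest on the first principal component. KO 1 and WT 3 stood apart in another way: the summed level of 7 pancreatic acinar markers was 29831 CPM in KO 1, 494 in KO 2 and 60.2 in KO 3, against 72.6 CPM in WT 1, 1127 in WT 2 and 26799 in WT 3. CPM are counts scaled to a common library size, so they compare libraries within a gene. All 7 markers were highest in KO 1 among the KO libraries and in WT 3 among the WT libraries, and none was at 0 in any library. Between genotypes none passed, the smallest p-values being those of Cela1 (log2 fold change 0.54 ± 1.67) and Cela2a (0.63 ± 2.31). Acinar cells are packed with ER and the labels name colon alone, so results are also given without KO 1 and WT 3, a setting chosen after the data were seen. In whole tissue, fewer cells of a type and less RNA per cell cannot be told apart.

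None of the 31 genes passed the test between KO and WT. The quasi-likelihood test of edgeR called 0 of 31 at an adjusted p below 0.05, where 0.158% of all 14553 tested genes were called (0.00687% higher and 0.151% lower in KO), and the smallest adjusted p among them was 0.347. At an unadjusted p below 0.05, 1 of 31 (3.23%) passed, against 13.0% of all genes. That gene was Manf, higher in KO, a direction in which 5.17% of all genes passed. DESeq2 called 0 of 31 after adjustment, where 3.54% of the genes it tested were called, and 5 of 31 at an unadjusted p below 0.05, where 13.7% of genes passed. In the authors' deposited table the lowest false discovery rate of the 31 was 0.294, and 2.39% of genes lay below 0.05. The deposited unadjusted p-values of the 31 equal those of DESeq2 given here, so that table is not a further test of them. The 95% intervals of the log2 fold change lay within 1 log2 unit on either side of 0 for 26 of the 31 genes. As a description of the branches, the median log2 fold change of KO over WT was 0.33 for chaperones, -0.05 for degradation genes, 0.04 for sensors and their factors, and -0.20 for ATF4 and CHOP targets, against 0.03 for all genes.

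**Figure D1:**
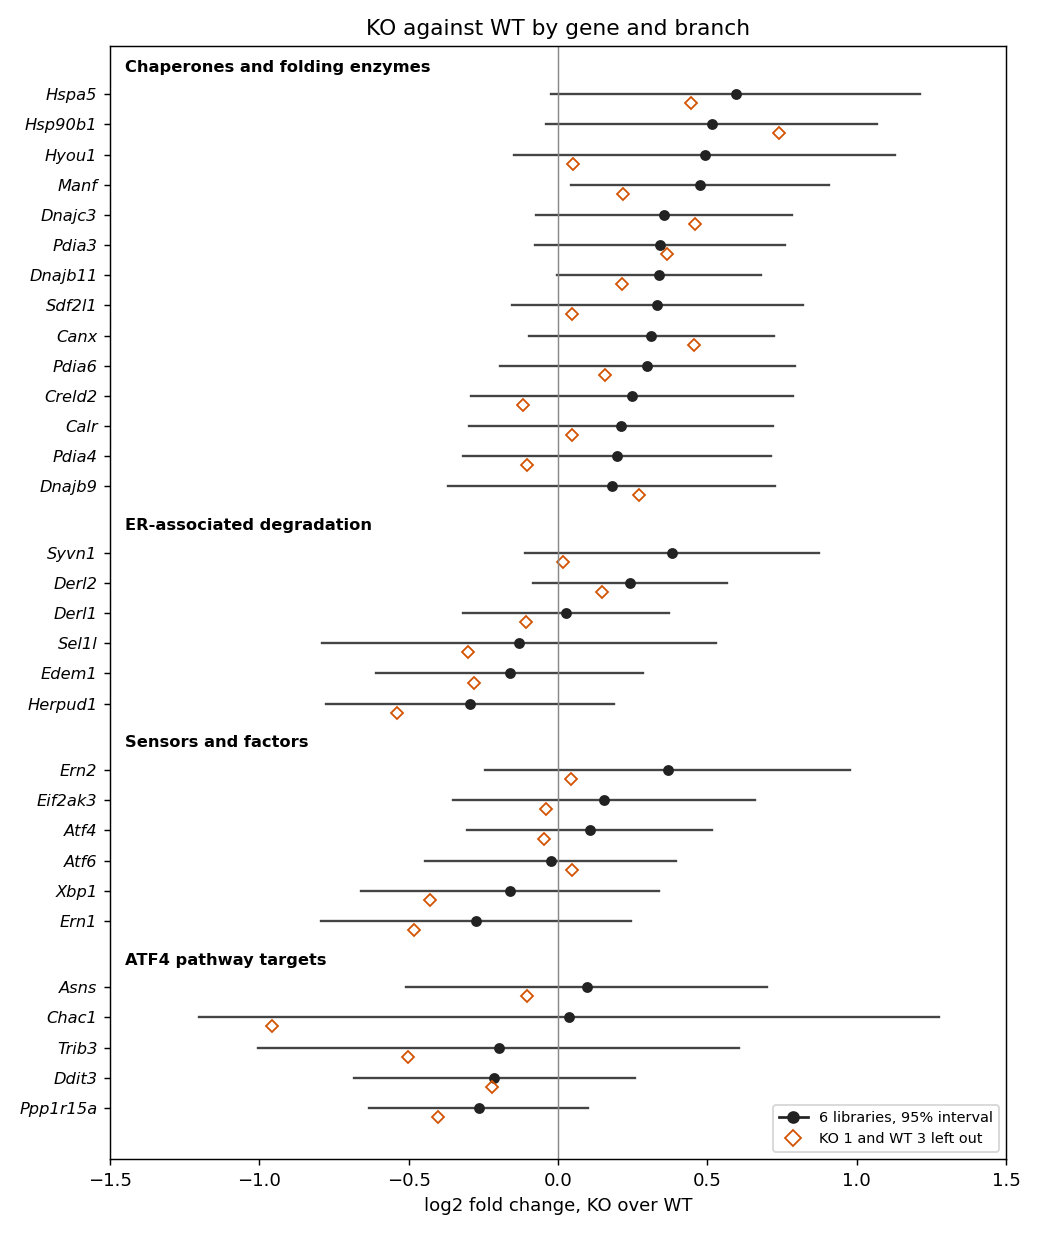
Log2 fold change of KO over WT for each of the 31 genes, by branch, from edgeR, with its 95% interval as a bar. All 14 chaperones have estimates above 0 and 3 of the 5 ATF4 and CHOP targets have estimates below 0; every interval but that of Manf includes 0.

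The 14 chaperones and folding enzymes had fold changes above 0 without exception, from 0.18 (Dnajb9) to 0.59 (Hspa5) on the log2 scale, where 54.2% of all genes lay above 0. None of them passed the adjusted test. Manf (ENSMUSG00000032575, chromosome 9), a secreted factor that helps ER chaperones, had 232, 157 and 188 CPM in the KO libraries, against 140.3, 157 and 118 CPM in the WT libraries. All KO libraries lay above all WT libraries, but KO 2 and WT 2 were nearly equal, at 157.2 and 156.9 CPM. Its log2 fold change was 0.48 ± 0.19 (SE), with a 95% interval of 0.04 to 0.91 (edgeR adjusted p = 0.347). Without KO 1 and WT 3 it was 0.22 ± 0.19, and the unadjusted p of edgeR was 0.299.

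Hspa5 (ENSMUSG00000026864) encodes BiP, the ER member of the HSP70 family and the chaperone that holds the sensors inactive. It had 776, 694 and 395 CPM in KO, against 360.5, 440.3 and 434 CPM in WT. KO 1 and KO 2 lay above every WT library, while KO 3 lay within the WT range. The log2 fold change of 0.59 ± 0.27 had a 95% interval of -0.02 to 1.21 (edgeR adjusted p = 0.397). Dnajb11, a co-chaperone of BiP, had 203, 156 and 176 CPM in KO, against 138, 148 and 137 CPM in WT. The groups did not overlap, and its fold change was 0.34 ± 0.15 (edgeR adjusted p = 0.386). Calr encodes calreticulin, the lectin chaperone that binds glycoproteins, and had the highest mean level per length of all 31 genes. In TPM, the authors' measure corrected for gene length, it stood at 1054, 784 and 769 in KO, against 639, 947 and 763 in WT. The groups overlapped fully below KO 1, with a log2 fold change of the counts of 0.21 ± 0.22 (edgeR adjusted p = 0.729).

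Of the 31 genes, 5 (16.1%) had every KO library above every WT library, where 9.35% of all genes did, and 0 had every KO library below, where 10.2% did. All 5 were chaperones. Besides Manf and Dnajb11 they were Hsp90b1, Pdia3 and Canx, which are named after their values were seen. Hsp90b1, the ER member of the HSP90 family, had 332, 588 and 402 CPM in KO, against 270.0, 323 and 332 CPM in WT, and KO 1 exceeded WT 3 only at the decimal, 332.3 against 332.2 CPM. Pdia3, a disulfide isomerase that works with the lectin chaperones, had 855, 797 and 796 CPM in KO, against 546, 692 and 694 CPM in WT (log2 fold change 0.34 ± 0.18). Canx, the membrane-bound partner of calreticulin, had 333, 416 and 373 CPM in KO, against 262, 313 and 327 CPM in WT (0.31 ± 0.18).

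**Figure D2:**
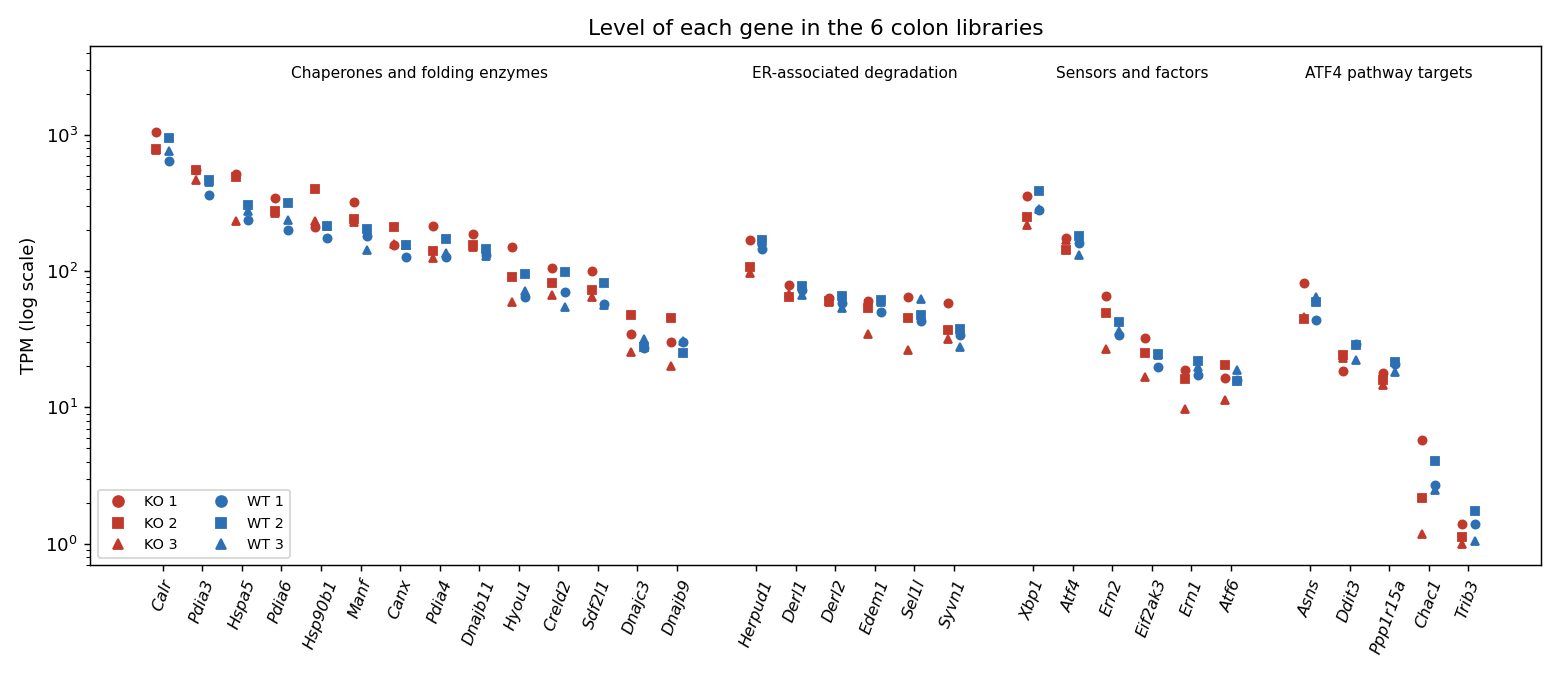
Level of each gene in each library, in TPM on a log axis, KO points left of WT points within each gene. Calr is the most abundant at a mean of 826 TPM and Trib3 and Chac1 the least; within most genes the 2 groups overlap.

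The mean level of the 14 chaperones, centred over the libraries, was 0.36, 0.16 and -0.02 log2 units in KO, against -0.29, -0.02 and -0.18 in WT, with KO 3 and WT 2 all but equal. KO 1 was the highest KO library for 10 of the 14 chaperones, and for 23 of all 31 genes. Hyou1, an ER chaperone of the HSP110 type named after its values were seen, had 326, 178 and 154 CPM in KO, against 146, 175 and 147 CPM in WT. Its fold change of 0.49 ± 0.28 was 0.05 without KO 1 and WT 3. Without both libraries 12 of the 14 chaperones lay above 0 with a median of 0.22, and Pdia4 (-0.10) and Creld2 (-0.12) lay below. For Hsp90b1 the estimate was 0.51 ± 0.24 with all libraries and 0.74 ± 0.25 without both. WT 3 was the highest WT library for 5 of the 14 chaperones. With the acinar level as a covariate in the fit, also chosen after the data were seen, the chaperone median was 0.34 with 14 of 14 above 0. Without KO 3, the library apart on the first component, it was 0.37 with 14 of 14 above 0.

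**Figure D3:**
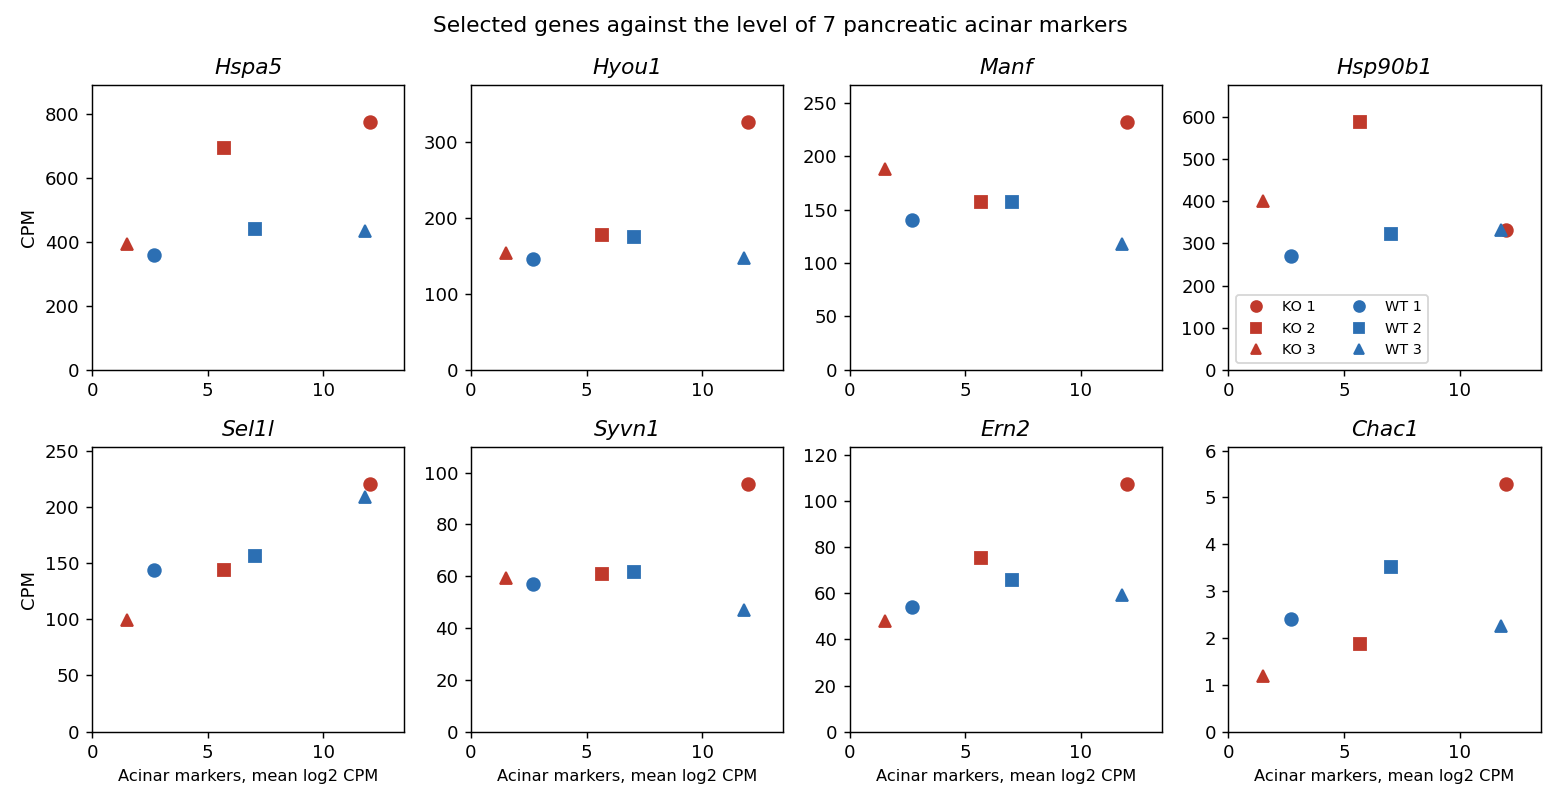
CPM of 8 of the genes in each library (vertical) against the mean log2 CPM of 7 pancreatic acinar markers (horizontal), KO in red and WT in blue. KO 1 and WT 3 lie furthest right; KO 1 stands above WT 3 in Hspa5, Hyou1, Manf, Syvn1, Ern2 and Chac1, while Sel1l is high in both.

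Together the 14 chaperones took 0.511%, 0.476% and 0.416% of all counts in the KO libraries, against 0.329%, 0.427% and 0.376% in the WT libraries. KO 3 lay below WT 2, so the groups overlapped in this sum. The chaperone genes with an ERSE in their promoter had a median log2 fold change of 0.31 (7 genes, 0.21 to 0.59), and those without one 0.33 (5 genes, 0.18 to 0.34). The ranges of genes with and without the printed element overlapped, and this is a description with no test.

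The 6 genes of ER-associated degradation were spread around 0, with 3 of 6 above it. Syvn1, the ubiquitin ligase HRD1 and the one gene of this branch with an ERSE, had 95.7, 60.7 and 59.5 CPM in KO, against 57.1, 61.8 and 46.8 CPM in WT. KO 1 alone stood clear of WT, and the fold change of 0.38 ± 0.21 (edgeR adjusted p = 0.491) was 0.02 without KO 1 and WT 3. Derl2, a channel component, had 54.8, 48.6 and 56.8 CPM in KO, against 48.8, 46.6 and 40.3 CPM in WT (0.24 ± 0.14, edgeR adjusted p = 0.512). KO 2 lay just under WT 1 and the groups overlapped there alone.

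Herpud1, a stress-induced scaffold of the ligase and the most abundant gene of the branch per length, had 181, 109 and 116 CPM in KO, against 153, 174 and 172 CPM in WT. KO 2 and KO 3 lay below every WT library and KO 1 above. Its fold change was -0.29 ± 0.21 (edgeR adjusted p = 0.597) and -0.54 ± 0.18 without KO 1 and WT 3 (edgeR adjusted p = 0.300). Herpud1 thus had an estimate opposite in sign to that of Hspa5, although both promoters hold an element of the ERSE type. Sel1l, the adaptor that joins HRD1 to its substrates, named after its values were seen, had 221, 144 and 99.6 CPM in KO, against 144, 156 and 209 CPM in WT. The highest library of each genotype was the one rich in acinar markers, and the fold change was -0.13 ± 0.29. Edem1, a lectin that picks out glycoproteins for degradation, and the channel gene Derl1 had fold changes of -0.16 ± 0.19 and 0.03 ± 0.15.

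Among the sensors, the 2 IRE1 genes had estimates of opposite sign. Ern2 (ENSMUSG00000030866, chromosome 7), the IRE1 form of mucus-making epithelium, had 108, 75.5 and 48.0 CPM in KO, against 54.1, 65.9 and 59.2 CPM in WT (log2 fold change 0.37 ± 0.27, edgeR adjusted p = 0.602). Ern1 (ENSMUSG00000020715, chromosome 11), the IRE1 form found in most cells, had 67.6, 54.6 and 35.4 CPM in KO, against 57.8, 68.0 and 65.0 CPM in WT (-0.28 ± 0.23, edgeR adjusted p = 0.651). Ern2 was above every WT library in KO 1 and KO 2 and below them in KO 3, and Ern1 was below every WT library in KO 2 and KO 3. The Ern2 estimate was 0.05 without KO 1 and 0.04 without KO 1 and WT 3, and that of Ern1 was -0.50 and -0.48 in the same fits and -0.06 without KO 3. The ratio of Ern2 to Ern1 in CPM within a library was 1.59, 1.38 and 1.36 in KO, against 0.936, 0.969 and 0.911 in WT. It averaged 1.44 ± 0.13 in KO and 0.938 ± 0.029 in WT (SD, n = 3 each). The ratio did not overlap between genotypes, and neither gene passed. It was formed after the values were seen and is given as a description. How many ratios of other gene pairs also did not overlap was not counted. Per length Ern2 was the more abundant in every library, at 2.77 to 3.46 times the TPM of Ern1 in KO and 1.86 to 1.97 times in WT.

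Xbp1, the factor whose mRNA IRE1 splices, had 389, 257 and 271 CPM in KO, against 313, 399.7 and 315 CPM in WT (-0.16 ± 0.22, edgeR adjusted p = 0.792). Atf4 had 169, 129.6 and 179 CPM in KO, against 152, 167 and 125 CPM in WT (0.11 ± 0.18, edgeR adjusted p = 0.839). In both genes the groups overlapped. Atf6 had 67.1, 78.0 and 50.3 CPM in KO, against 63.4, 60.7 and 74.8 CPM in WT, with a fold change of -0.03 ± 0.18 and a 95% interval of -0.45 to 0.40 (edgeR adjusted p = 0.967). Atf6 lies 383 kb from Adamts4 on chromosome 1 (chr1:170704674-170867771 and chr1:171250421-171260637 in the GENCODE M21 annotation of GRCm38) and is the one gene of the 31 on that chromosome. Eif2ak3, the gene of PERK, had 81.3, 57.3 and 44.9 CPM in KO, against 48.1, 57.0 and 59.8 CPM in WT (0.15 ± 0.22).

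The ATF4 and CHOP targets had a median fold change of -0.20, with 2 of 5 above 0 and none called. Ppp1r15a, the phosphatase subunit GADD34 that restarts translation, had 23.5, 19.5 and 21.0 CPM in KO, against 26.8, 26.7 and 23.4 CPM in WT. KO 1 and WT 3 were all but equal and the others did not cross them, giving -0.27 ± 0.16 (edgeR adjusted p = 0.520). Ddit3, which encodes CHOP, had 9.14, 10.7 and 12.2 CPM in KO, against 13.6, 13.1 and 10.4 CPM in WT (-0.21 ± 0.20, edgeR adjusted p = 0.705). These values are of ENSMUSG00000025408. The second identifier, ENSMUSG00000116429, marks an overlapping locus on chromosome 10, so reads shared by both may have been lost in the counting. Asns, asparagine synthetase, the most abundant of these genes, had 91.6, 46.8 and 56.9 CPM in KO, against 47.9, 63.6 and 71.6 CPM in WT (0.10 ± 0.26, edgeR adjusted p = 0.907).

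Trib3, a pseudokinase that feeds back on this pathway, was near the limit of precise measurement, with 1.59, 1.18 and 1.23 CPM in KO, against 1.54, 1.88 and 1.18 CPM in WT (-0.20 ± 0.35). Chac1, which breaks down glutathione and is named after its values were seen, had 5.29, 1.86 and 1.18 CPM in KO, against 2.39, 3.51 and 2.25 CPM in WT. KO 1 was high and the other KO libraries lay below all WT libraries. Its fold change of 0.04 ± 0.54 had an interval of -1.20 to 1.28, the widest of the 31, and was -0.96 without KO 1 and WT 3. Without those libraries 0 of the 5 targets lay above 0 and their median was -0.40. With all libraries, 15 of 15 immediate early genes, which respond to the handling of tissue, had fold changes below 0 (median -0.43). DESeq2 called 4 of them lower in KO and edgeR 0. Those with the smallest p were Dusp1 (-1.35 ± 0.24) and Egr1 (-1.46 ± 0.27). Without KO 1 and WT 3, 2 of the 15 immediate early genes lay above 0 (median -0.53). Their part in the values of the ATF4 and CHOP targets was not tested.

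The branches could also be set against each other within a library, which removes what all genes of a library share. The mean log2(CPM + 1) of the chaperones minus that of the degradation genes, each gene centred over the 6 libraries, was 0.03, 0.30 and 0.19 in KO, against -0.25, -0.09 and -0.18 in WT. Minus the sensors it was 0.04, 0.18 and 0.29 in KO, against -0.20, -0.12 and -0.18 in WT. Minus the ATF4 and CHOP targets it was 0.11, 0.39 and 0.18 in KO, against -0.31, -0.23 and -0.15 in WT. In all 3 differences every KO library lay above every WT library, KO 1 being the lowest of the KO libraries, and the gap between the group means was 0.33 to 0.45 log2 units. All 3 share the chaperone term, so they are not separate observations. Among single genes, 9.35% had every KO library above every WT library, and the share among differences of other lists was not computed. These genes were chosen with earlier results known, and the differences are a description with no test. The same differences between wider lists of the same functions did not separate the genotypes. Other ER folding genes minus other degradation genes gave 0.11, 0.02 and 0.06 in KO, against -0.09, -0.13 and 0.04 in WT.

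**Figure D4:**
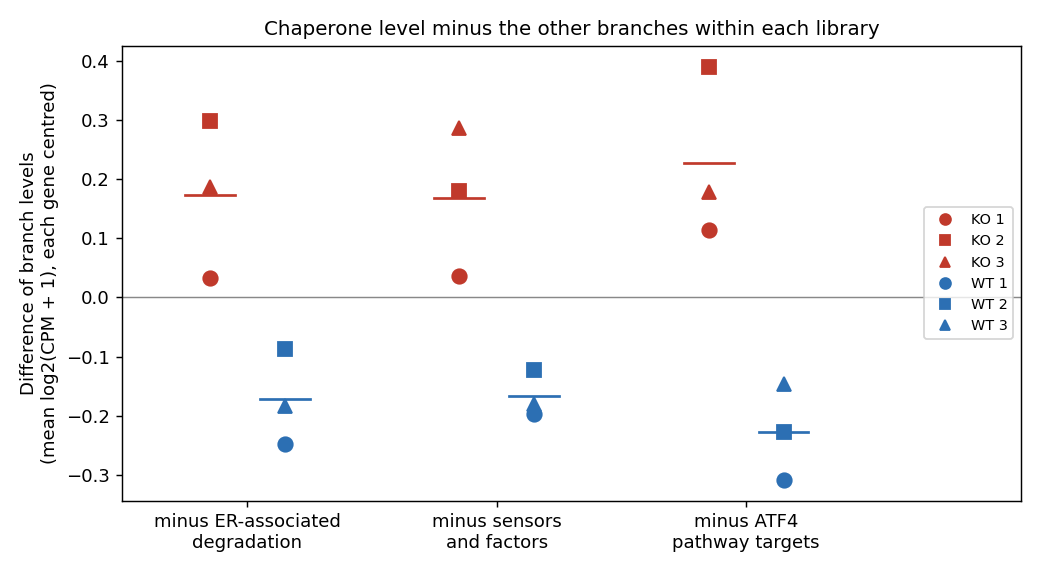
Mean chaperone level minus the mean level of each other branch within a library, in log2 units after centring each gene, for KO (left) and WT (right) libraries. Each point is 1 library; the KO points run from 0.03 to 0.39 and the WT points from -0.31 to -0.09.

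Beyond the 31 genes, 152 other genes of the same pathways were tested, of which 108 had fold changes above 0 (median 0.12) and none was called by edgeR. Without KO 1 and WT 3, 89 of 152 lay above 0 (median 0.04). Genes of ER entry and of transport from the ER to the Golgi had 36 of 40 above 0 (median 0.19), and 31 of 40 without those libraries (median 0.14). There Srp54a, a subunit of the particle that brings nascent chains to the ER, had 37.8, 55.5 and 56.8 CPM in KO, against 31.8, 24.96 and 30.4 CPM in WT. It passed in DESeq2 (adjusted p = 0.0268) and not in edgeR (adjusted p = 0.171), and mouse has close copies of the gene among which reads may be divided. Sec11c, a subunit of signal peptidase, had 91.3, 81.1 and 89.1 CPM in KO, against 59.5, 73.4 and 60.0 CPM in WT, without overlap and without passing (0.44 ± 0.14, edgeR adjusted p = 0.248).

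Other folding genes had 21 of 29 above 0 (median 0.11), and 16 of 29 without KO 1 and WT 3 (median 0.02). The smallest p-values among them were those of the disulfide reductase Dnajc10 (0.56 ± 0.18) and the glucosidase Mogs (0.54 ± 0.18), and none passed in edgeR or DESeq2. Other degradation genes had 13 of 22 above 0 (median 0.03) with none passing, and 10 of 22 without those libraries (median -0.02). The smallest p-values were those of Derl3 (-1.63 ± 0.63), also counted among the plasma cell markers, and of the ubiquitin ligase gene Rnf5 (0.37 ± 0.17). Other sensors and regulators had 15 of 24 above 0 (median 0.06), and 10 of 24 without those libraries (median -0.04), none passing, with the double-stranded RNA kinase gene Eif2ak2 at 0.69 ± 0.21 and the secretory-cell factor Creb3l1 at 0.55 ± 0.22. Other genes of the ATF4 pathway had 23 of 37 above 0 (median 0.14), and 22 of 37 without those libraries (median 0.05). The transporter Slc1a4 stood at 0.72 ± 0.21 and the glycyl-tRNA synthetase Gars at 0.48 ± 0.14 without passing. Cebpb, a dimer partner of CHOP, was called lower in KO by DESeq2 (adjusted p = 0.0341) and not by edgeR (adjusted p = 0.207), with 30.2, 20.2 and 15.5 CPM in KO, against 41.1, 42.7 and 36.7 CPM in WT.

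**Figure D5:**
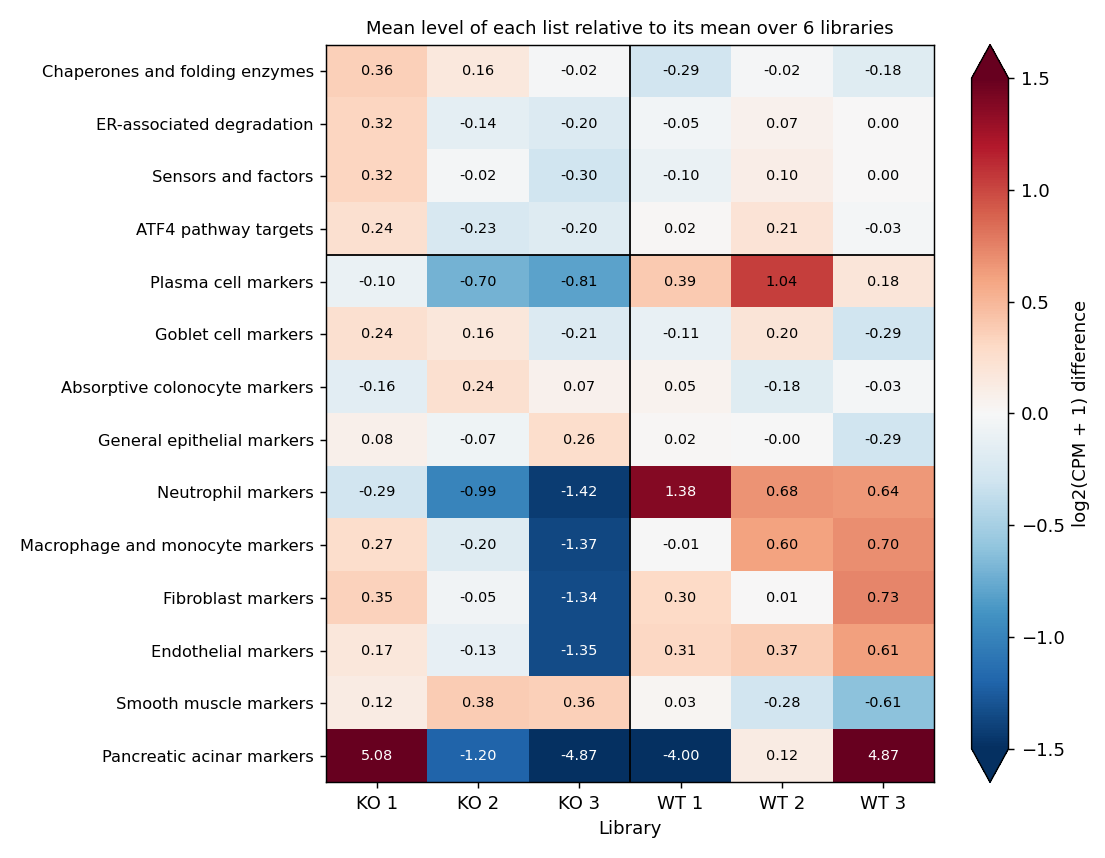
Mean level of each gene list in each library, as log2(CPM + 1) centred over the libraries, KO columns left of WT columns. Chaperones are at 0.36 in KO 1 and -0.29 in WT 1, plasma cell markers are below 0 in every KO library and above 0 in every WT library, and acinar markers are highest in KO 1 and WT 3.

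Plasma cells and goblet cells are the main secretory cells of the colon. Of 16 plasma cell markers 14 had fold changes below 0 (median -1.18), DESeq2 called 5 lower in KO and edgeR 0. The 2 above 0, Fkbp11 (0.58 ± 0.26) and Txndc5 (0.23 ± 0.21), are also counted among the other ER folding genes. The summed level of the 16 markers was 3757, 2325 and 1956 CPM in KO, against 7244, 11919 and 4344 CPM in WT, and none of the 16 was at 0. Mzb1, an ER co-chaperone of antibody-making cells, had 10.1, 4.28 and 5.85 CPM in KO, against 22.4, 37.3 and 16.8 CPM in WT (DESeq2 adjusted p = 5.44e-05, edgeR adjusted p = 0.108). Igkc, the constant region of the kappa light chain, had a fold change of -1.77 ± 0.42 (DESeq2 adjusted p = 0.000191, edgeR adjusted p = 0.154). WT 2 was the highest library in the summed markers and lay within the KO range for Hspa5.

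Goblet cell markers had 12 of 20 fold changes above 0 and 8 below (median 0.21). The estimates ran from -2.15 to 1.36, so the largest in size was a fall. DESeq2 called 2 goblet cell markers higher in KO and 0 lower, and edgeR called 0. Without KO 1 and WT 3, 10 of 20 lay above 0 and the median was -0.01. Their summed level was 34918, 27446 and 19567 CPM in KO, against 19695, 24959 and 20349 CPM in WT, and overlapped. The calls were Agr2, a disulfide isomerase of the goblet cell ER that mucin assembly needs, and the secreted lectin Reg4. Agr2 had 1994, 1742 and 2059 CPM in KO, against 1052, 1092 and 931 CPM in WT, with a fold change of 0.91 ± 0.17 (DESeq2 adjusted p = 2.17e-06, edgeR adjusted p = 0.0849). Reg4 had 54.6, 91.1 and 60.6 CPM in KO, against 25.9, 20.6 and 34.1 CPM in WT (1.36 ± 0.25, DESeq2 adjusted p = 0.00013). Muc2, the mucin of the goblet cell and named after its values were seen, had 22797, 14264 and 11203 CPM in KO, against 10989, 13060 and 9170 CPM in WT and did not pass in either test. KO 1 was highest in Muc2, as it was in Ern2 and Hspa5.

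Markers of the other cell types are given in counts of fold changes, with the genes of smallest p, and edgeR called none of them. All 18 neutrophil markers lay below 0 (median -2.06) and DESeq2 called 12 lower in KO, with the collagenase Mmp8 at -4.16 ± 0.64, lactoferrin (Ltf) at -2.59 ± 0.46 and the granule gene Ngp at 1, 0 and 0 counts in KO, against 591, 162 and 20 in WT. All 16 macrophage markers lay below 0 (median -0.78, DESeq2 1 lower), with Cd14 at -0.64 ± 0.20 and Itgam at -1.25 ± 0.41. All 11 endothelial markers lay below 0 (median -0.79, DESeq2 2 lower), with Esam at -1.08 ± 0.31 and Pecam1 at -0.99 ± 0.29. Of the fibroblast markers 12 of 13 lay below 0 (median -0.48, DESeq2 1 lower), with Pdpn at -1.26 ± 0.34 and Vim at -0.68 ± 0.21. Among T and NK cell markers 12 of 16 lay below 0 (median -0.33, DESeq2 1 lower), with Gzma at -2.12 ± 0.31 and Ctla4 at -1.24 ± 0.31. Without KO 1 and WT 3, 8 of the 16 T and NK cell markers lay above 0 (median -0.05). In the same fit, which keeps KO 3, the neutrophil, macrophage and endothelial markers had 0 above 0 and the fibroblast markers 2 of 13. KO 3 was the lowest KO library for 14 of 16 macrophage, 11 of 11 endothelial and 12 of 13 fibroblast markers. The centred mean level of the fibroblast markers was 0.35, -0.05 and -1.34 in KO, against 0.30, 0.01 and 0.73 in WT. For macrophage markers it was 0.27, -0.20 and -1.37 in KO, against -0.01, 0.60 and 0.70 in WT.

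Other lists lay above 0 or were spread around it. All 10 smooth muscle markers did (median 0.50) and DESeq2 called 3 higher in KO, with Actg2 at 1.19 ± 0.25 and the muscle filament gene Des at 0.95 ± 0.24. All 10 general epithelial markers did (median 0.17, DESeq2 0), with Cdx1 at 0.48 ± 0.19 and Epcam at 0.28 ± 0.16, and 8 of 10 without KO 1 and WT 3 (median 0.10). Of the cytosolic heat shock genes, listed with their mitochondrial partners, 11 of 13 lay above 0 (median 0.15, DESeq2 0), with Hspe1 and Hspd1 both at 0.63 ± 0.18, and 6 of 13 without those libraries (median -0.03). Absorptive colonocyte markers had 9 of 18 above 0 (median 0.03), with Aqp8 at 0.91 ± 0.35 and Slc20a1 at 0.72 ± 0.33. Enteroendocrine markers had 5 of 10 (median 0.10), with Insl5 at 1.19 ± 0.52 and Tph1 at -0.40 ± 0.25, and B cell markers 6 of 10 (median 0.02), with Fcer2a at 1.14 ± 1.02 and Cd79a at -0.48 ± 0.64. DESeq2 called none of these 3 lists' genes. Without KO 1 and WT 3, 9 of 10 B cell markers lay above 0 (median 0.81), which rested on KO 3. The summed B cell markers stood at 18.3, 31.3 and 129.5 CPM in KO, against 47.9, 82.9 and 75.1 CPM in WT. KO 3 alone lay above the WT libraries, and KO 1 and KO 2 lay below all of them. The part of any of these genes or cell types in the values of the 31 genes was not tested.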

How the data were processed

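Gene expression was measured by RNA-seq of mouse colon in 6 libraries, prepared from Trizol-extracted total RNA (SMARTER mRNA-Seq, per the labels). The authors deposited whole-number read counts per gene with TPM, a log2 fold change, a p-value and a false discovery rate. GRCm38, mm10 and mm39 all appear in the submitters' processing notes, with no role. What program aligned and counted the reads, and whether by strand, is not given in those notes or other sources used here.

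The counts as deposited were fitted over the 2 groups with the quasi-likelihood test of edgeR 4.0.16 in R 4.3.3 (TMM factors, default expression filter, 14553 of 21899 genes), and p-values were adjusted by Benjamini-Hochberg over all of these. Fold changes are KO over WT on the log2 scale. Their standard errors were derived from the F statistic and are approximate. CPM are scaled by TMM, and the authors' TPM served to compare genes and, as log2(TPM + 1), in an alternative with limma 3.58.1. Other alternatives were DESeq2 1.42.0, limma-voom, other scalings and filters, the replicate number as a block, an adjusted p below 0.1, and leaving out libraries. The p-value code was tested on simulated data with changes of 1 and 2 log2 units. In them edgeR recovered 29.6% and 84% of the changed genes, and 12 of its 125 calls were false. DESeq2 recovered 49% and 94%, and 47 of its 190 calls were false. Smaller changes, such as those estimated for the 31 genes, were not simulated. The promoters were RefSeq windows on GRCm38.p6, matched by symbol for 26 of 31 genes (27 promoters). For 24 of the 27, the 30 bases compared after the start lay in an annotated transcript of the gene.

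Members and lists were chosen with earlier results of these data known. Values per library are given for Adamts4, for the 3 genes with the smallest p and the most abundant gene of each branch, and for Ern1, Ern2, Xbp1, Atf4 and Atf6. In other lists the genes with the smallest edgeR p, 4 at most, are named, with fold changes or values per library. Genes outside this rule are said to have been chosen after their values were seen. Eif2ak3, Edem1, Derl1, Pdia4 and Creld2 are also outside it.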

Additional observations from a re-analysis of the deposited data

How the results depend on the processing

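None of the 31 genes was called under any of the 17 alternative fits or at an adjusted p below 0.1, where the smallest adjusted p among them lay between 0.128 and 0.653. The median of the chaperones ran from 0.22 to 0.44 with 12 to 14 of 14 above 0, that of the degradation genes from -0.19 to 0.05, that of the sensors from -0.08 to 0.07 and that of the ATF4 and CHOP targets from -0.40 to -0.03. The number of genes called over the whole table changed with the test: 23 in the edgeR fit (1 higher and 22 lower in KO), 9 with median-ratio factors (0 and 9), 39 with upper-quartile factors (1 and 38), 542 in DESeq2 (108 and 434), 69 without a count filter, 68 with limma on log2(TPM + 1), 134 at an adjusted p below 0.1, and 1 to 29 when 1 library was left out. Without KO 2 it was 1, without KO 3 3, without WT 1 6, without WT 2 5 and without WT 3 6. After the data were seen, edgeR without KO 1 and WT 3 gave 38, DESeq2 without both 552, and the acinar level as a covariate 211. With the replicate number as a block 81 genes were called and 0 of the 31. Same-numbered libraries deviated in opposite directions (correlations of -0.42, -0.15 and -0.43) and no library correlated best with its own number. These deviations from group means include the acinar markers, high in KO 1 and WT 3, so they cannot decide whether the numbers mark pairs. The labels state no pairing.

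The fold change of 21 of the 31 genes kept its sign in all alternative fits. Without KO 1 and WT 3, by edgeR and by DESeq2 alike, it was -0.10 for Pdia4, -0.12 for Creld2, -0.11 for Derl1 and -0.10 for Asns, and -0.96 for Chac1. By edgeR it was 0.048 for Atf6, -0.042 for Eif2ak3 and -0.047 for Atf4, and by DESeq2 0.049, -0.041 and -0.046. On log2(TPM + 1) it was -0.036 for Derl1, -0.0013 for Asns and -0.16 for Chac1. Chac1 also stood at -0.0029 with upper-quartile factors, -0.21 with limma-voom and with the replicate block, and -0.15 with the acinar covariate. Leaving out 1 library at a time gave -0.071 to 0.33 for Pdia4, -0.080 to 0.38 for Dnajb9, -0.48 to 0.11 for Sel1l, -0.053 to 0.14 for Derl1, -0.18 to 0.13 for Atf6, -0.10 to 0.34 for Eif2ak3, -0.00072 to 0.23 for Atf4, -0.23 to 0.28 for Asns and -0.84 to 0.40 for Chac1. The cause of these changes was not tested. Depth limits the least abundant genes, Trib3 and Chac1, with a lowest median of 27 counts per library.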

Other observations

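Another pair of ER folding genes, outside the 31 and named after their values were seen, followed the acinar markers. Pdia2, a disulfide isomerase known from the pancreas, had 131, 1.05 and 0.0537 CPM in KO, against 0.257, 3.11 and 83.8 CPM in WT. Erp27, an ER protein of the acinar cell, had 24.3, 0.310 and 0 CPM in KO, against 0.0428, 2.24 and 31.4 CPM in WT. Both were high in KO 1 and WT 3 and neither passed between genotypes (edgeR adjusted p = 0.921 for Pdia2 and 0.940 for Erp27). After the data were seen, 21 rows were chosen by level, digestive enzyme genes and others of this kind. Each was above 1000 CPM in KO 1 and WT 3 and more than 10 times its level in KO 3 and WT 1. These rows took 5.94% of the counts in KO 1 and 6.96% in WT 3. In the other libraries they took 0.00688% to 0.266%, a contrast that the choice itself partly fixed. Amy2a2, Amy2a3 and Amy2a4 had equal values in every library, so the same reads may be counted more than once. Among the 14 chaperones the ratio of KO 1 to WT 3 in CPM ran from 1.0004 (Hsp90b1) to 2.21 (Hyou1).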
